A study of Mus musculus with 30 samples.

Results

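Type I interferons are secreted proteins that alert cells to infection. They bind the receptor pair IFNAR1 and IFNAR2, which signals through the kinases JAK1 and TYK2 to a transcription factor complex that contains STAT2 and IRF9. The complex binds interferon-stimulated response elements in DNA and turns on interferon-stimulated genes, whose products degrade or mask foreign RNA, block virus entry and release, and modify host proteins. Macrophages keep a low resting level of these genes. Lipopolysaccharide (LPS) raises them through Toll-like receptor 4 and induced interferon-β, and interferon-γ also raises many of them. Described here are 46 such effector genes out of 55414 genes counted. They were taken from a list of symbols that was chosen with earlier results of these data known. All 46 passed the filter on low counts that left 15686 genes for testing.

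Expression was measured by sequencing polyA RNA from mouse bone marrow-derived macrophages, which were grown for 7 days in medium holding 15 or 20% L929-conditioned medium, a source of macrophage colony-stimulating factor. The marrow donors were wild-type (WT) or transgenic TRα1PV mice, and the latter carry a mutation in thyroid hormone receptor α1. As background, the PV mutant receptor does not bind thyroid hormone and acts in a dominant-negative manner. The sources used here do not give zygosity, strain, sex or age. Some cells were left unstimulated (M0), some received 20 ng/mL LPS together with 20 ng/mL interferon-γ (M1), and some received 20 ng/mL interleukin-4 (M2). There were 5 libraries in each of these 6 groups, which the labels call biological replicates. Whether these were separate animals is not stated, so the p-values measure the spread between these libraries.

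Between 23016000 and 59086000 reads per library were counted in genes. Macrophage markers (Adgre1, Csf1r, Cd68, Mertk, Fcgr1, Itgam and Lyz2) summed to 28964 to 33582 CPM (reads of a gene relative to the library's size) in WT M0 and 26355 to 31124 CPM in TRα1PV M0. Thra, which encodes the receptor, was higher in TRα1PV in each state (log2 fold change 1.20 ± 0.10 in M0), although counts do not separate mutant from normal transcripts. Klf9, a direct target of thyroid hormone, was lower by 3.81 ± 0.15 in M0. WT M0 replicate 2 stood apart in its reads from the mitochondrial genome, 4.56% where the other 4 of its group had 0.921 to 2.07%. Member calls in M0 that were lost without it, or without both M0 libraries numbered 2, are therefore given below.

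Promoter sequence is shown for 7 members that were higher in TRα1PV M0 and hold the core of the element the pathway reads, and for 2 members, Trim25 and Epsti1, that were not called there and whose runs lack it. Other called members, among them Ifi44, Ifit2 and Cmpk2, also had no match in their windows. Each run below is 90 bases from upstream of the annotated transcript start, taken from RefSeq on build GRCm38.p6 (the counts were made on GRCm39). Capitals mark GAAANNGAAA, the core of the interferon-stimulated response element, or its reverse complement TTTCNNTTTC. Sequences are written 5′ to 3′ on the strand of the gene.
Isg15: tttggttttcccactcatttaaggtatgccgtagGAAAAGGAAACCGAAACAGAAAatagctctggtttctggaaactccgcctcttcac
Ifit1: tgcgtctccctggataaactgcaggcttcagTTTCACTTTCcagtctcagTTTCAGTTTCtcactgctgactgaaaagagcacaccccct
Ifit3: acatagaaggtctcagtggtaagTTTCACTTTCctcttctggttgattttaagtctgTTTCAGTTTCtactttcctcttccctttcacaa
Ifit3b: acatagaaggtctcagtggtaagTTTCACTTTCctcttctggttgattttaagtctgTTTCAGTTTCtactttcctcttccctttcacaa
Oas1a: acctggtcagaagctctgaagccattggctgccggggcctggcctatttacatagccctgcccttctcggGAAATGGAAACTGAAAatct
Rsad2: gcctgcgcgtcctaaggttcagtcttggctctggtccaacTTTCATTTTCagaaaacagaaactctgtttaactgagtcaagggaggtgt
Ddx60: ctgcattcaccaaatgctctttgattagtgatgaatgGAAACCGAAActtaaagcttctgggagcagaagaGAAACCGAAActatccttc
Trim25: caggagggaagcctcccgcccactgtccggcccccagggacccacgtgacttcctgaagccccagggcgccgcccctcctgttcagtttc
Epsti1: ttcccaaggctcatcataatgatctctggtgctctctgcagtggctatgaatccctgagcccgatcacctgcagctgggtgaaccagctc

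The Isg15 run lies at chr4:156200841-156200930 (minus strand) and the Ifit1 run at chr19:34640754-34640843 (plus strand). Ifit3 is read from chr19:34583350-34583439 (plus strand) and Ifit3b from chr19:34607746-34607835 (plus strand). These 2 runs are identical at 90 of 90 bases. The copies lie in the same gene cluster, with Ifit1bl1 between them. The Oas1a run lies at chr5:120907526-120907615 (minus strand), the Rsad2 run at chr12:26456523-26456612 (minus strand) and the Ddx60 run at chr8:61927997-61928086 (plus strand). Trim25 is read from chr11:88999313-88999402 (plus strand) and Epsti1 from chr14:77904149-77904238 (plus strand), and neither run holds the core. The 3 matches of Isg15 overlap each other, starting 78, 72 and 66 bases before the start site. In Ddx60 a match starts 53 bases and another 19 bases before it, and in Oas1a the 2 overlapping matches start 20 and 14 bases before it.

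Windows from 250 bases before to 50 bases after the start were present for 36 of the 46 members. The core, on either strand, occurred in 16 of these 36 members (44.4%), against 3.99% of the 27025 genes that have a window. A match describes the letters and not a bound site. The core of the interferon-γ-activated site, TTCNNNGAA, which reads the same on both strands, occurred in 8 of the 36 members (22.2%), among them Isg20, Bst2 and Ifi35, against 9.55% of all genes. Windows of Oas2, Mx1, Mx2, Usp18, Parp9, Parp14, Zbp1, Ifi27l2a, Rtp4 and Tor3a were not used.

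**Figure D1:**
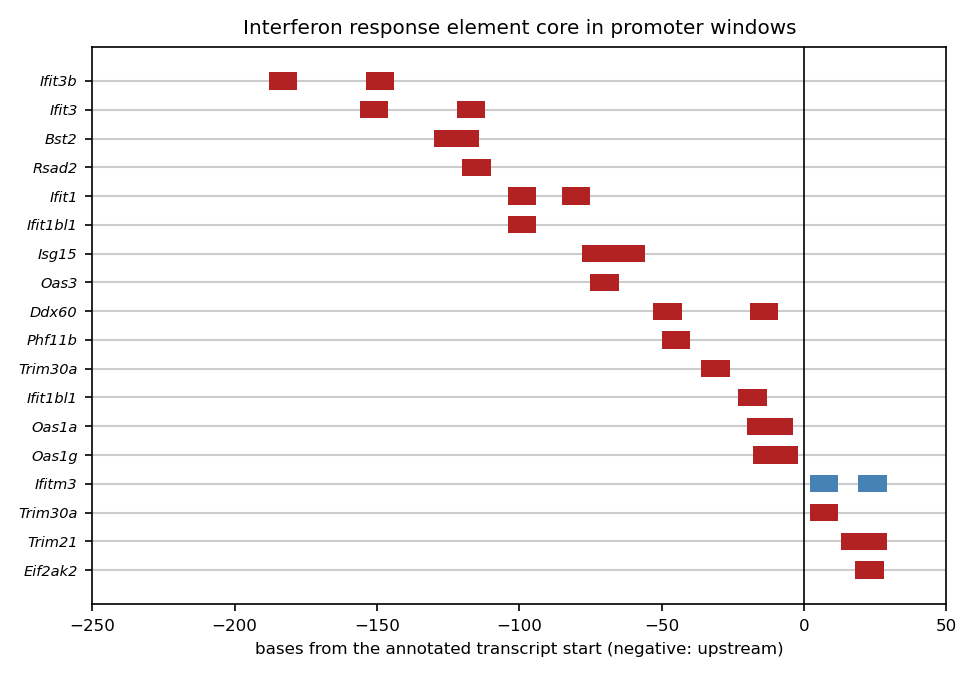
Positions of GAAANNGAAA or its reverse complement in the promoter windows of the 16 members that hold it, in bases from the annotated transcript start (x axis, upstream negative). Each row is 1 annotated start, so Ifit1bl1 and Trim30a appear 2 times; red marks members higher in TRα1PV M0 and blue marks Ifitm3, which was not called there. Most boxes lie upstream of the start, between base -188 and the start itself.

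The first question was how these genes differed between the genotypes in unstimulated macrophages. In M0, 41 of 46 members were higher in TRα1PV than in WT and 0 were lower. Over all 15686 genes, 12% were higher and 14% lower by the same test, edgeR's quasi-likelihood test with Benjamini-Hochberg adjustment, called under 0.05. The median log2 fold change of the members was 1.16, against -0.01 for all genes. For 27 members the 5 TRα1PV libraries all lay above the 5 WT libraries, which held for 5.57% of all genes. In these bulk samples, fewer cells of a type and less RNA per cell cannot be told apart.

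The IFIT genes encode proteins that bind RNA lacking the marks of host messenger RNA. All 5 rose, by a median log2 of 2.01 (range 1.78 to 2.30). Ifit3b (ENSMUSG00000062488) stood at 11.7, 9.57, 8.57, 5.6 and 7.06 CPM in WT replicates 1 to 5 and at 30.4, 38.3, 49.6, 65.3 and 24.4 CPM in TRα1PV. Each TRα1PV library was above each WT library, and the log2 fold change was 2.30 ± 0.28 (standard error, adjusted p = 3.19e-07). Ifit3 had 59.4, 47.8, 45.4, 28.7 and 33.4 CPM in WT and 129, 171, 201, 267 and 94.7 CPM in TRα1PV. The groups did not overlap here either, with replicate 4 the lowest in WT and the highest in TRα1PV, and the log2 fold change was 2.01 ± 0.26 (adjusted p = 8.72e-07). Ifit1bl1, an Ifit1-like gene of the same cluster, had 10.00, 14.9, 10.4, 4.34 and 10.3 CPM in WT and 36.1, 37.2, 51.5, 56.4 and 26.1 CPM in TRα1PV. Its log2 fold change was 2.06 ± 0.27 (adjusted p = 9.65e-07), again with no overlap. Ifit2 and Ifit1 rose by 1.87 ± 0.24 and 1.78 ± 0.23.

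Reads of such near copies are hard to assign. Of the 50-base stretches in the transcripts of Ifit3, 51.2% also occur in Ifit3b, and 44.5% of those of Ifit3b occur in Ifit3. Oas1a shares 57.6% of its stretches with Oas1g, which shares 54.1% of its own with Oas1a. Reads that the aligner placed more than once were not counted in either gene, so the levels of these pairs are uncertain, whereas 21 members shared no stretch with another gene.

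Ifi44, a cytoplasmic protein of the interferon response, was the other gene among the 4 largest differences. It had 5.44, 6.41, 3.19, 1.66 and 3.01 CPM in WT and 11.2, 12.1, 21.7, 26.9 and 7.87 CPM in TRα1PV. The lowest TRα1PV library, replicate 5, lay above the highest WT library, replicate 2, and the log2 fold change was 2.04 ± 0.32 (adjusted p = 1.96e-05). The GTPases Mx1 and Mx2, which block incoming viral nucleoprotein complexes, rose by 2.00 ± 0.18 and 1.86 ± 0.19. Mx1 had 50.6, 38.3, 42.5, 29.1 and 31.6 CPM in WT and 133, 174, 189, 193 and 79.4 CPM in TRα1PV, with no overlap. Both are listed as transcribed pseudogenes in the reference annotation of the C57BL/6J strain.

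All 6 members of the OAS family rose. Oas1a, Oas1g, Oas2, Oas3 and Oasl2 sense double-stranded RNA and make oligoadenylates that activate RNase L, and Oasl1, a relative without this activity, restrains Irf7 translation. Log2 fold changes ran from 0.87 ± 0.15 for Oas1a to 1.61 ± 0.23 for Oasl1. Of the 6, Oas2 alone (1.24 ± 0.18) showed no overlap between genotypes. Among the nucleotide and RNA enzymes, Rsad2 (viperin), which makes a chain-terminating nucleotide, rose by 1.80 ± 0.22 and its neighbour Cmpk2, a mitochondrial nucleotide kinase, by 1.70 ± 0.20. The exonuclease gene Isg20 rose by 0.88 ± 0.17.

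Isg15 encodes a ubiquitin-like modifier, Herc6 its main ligase in mouse, and Usp18 the protease that removes it and restrains the receptor. Usp18 rose by 1.55 ± 0.17, Herc6 by 1.39 ± 0.17 and Isg15 by 1.26 ± 0.19. Of the ubiquitin ligases, Trim30a rose by 1.18 ± 0.13 and Trim21, which recognises antibody-coated particles in the cytosol, by 0.52 ± 0.07. Trim25, which acts on the RNA sensor RIG-I, was not called (0.04 ± 0.07, adjusted p = 0.672).

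The ADP-ribosylation genes rose less and more evenly. Parp9 and Dtx3l, whose products form a complex, rose by 0.82 ± 0.08 and 0.79 ± 0.09, and Parp14 and Parp12 by 0.93 ± 0.11 and 0.73 ± 0.08, all without overlap. Among the nucleic acid-binding effectors, all 6 rose. They were the helicase gene Ddx60 (1.68 ± 0.18), the Z-nucleic acid sensor gene Zbp1 (1.03 ± 0.17), Eif2ak2 (PKR, 0.91 ± 0.12), which halts translation, the helicase-like genes Helz2 (0.71 ± 0.14) and Znfx1 (0.64 ± 0.10), and the RNA-editing enzyme gene Adar (0.35 ± 0.10). The chromatin and nuclear body genes Phf11d (1.53 ± 0.18), Phf11b (1.26 ± 0.15) and Sp100 (0.73 ± 0.12) rose too. So did Xaf1 (1.43 ± 0.12), a promoter of cell death, Rtp4 (1.42 ± 0.25), Samd9l (1.14 ± 0.22), Tor3a (0.71 ± 0.09) and Ifi35 (0.49 ± 0.12).

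Of the membrane and secreted products, 1 of 3 was called. Bst2 (tetherin), which holds budding virions at the cell surface, rose by 0.50 ± 0.17 (adjusted p = 0.0273). Ifitm3, which blocks virus fusion, and Lgals3bp, a secreted glycoprotein, were not called, at 0.20 ± 0.10 and 0.24 ± 0.11. Ifi27l2a (0.31 ± 0.22) and Epsti1 (0.02 ± 0.13) were not called either. Ifitm3 and Lgals3bp were each called higher in 3 of 18 alternatives and Ifi27l2a in 2 (lowest adjusted p = 0.0283, 0.0264 and 0.0137). Estimates of all 46 members were above 0, but those of Trim25 and Epsti1 fell below 0 under some alternatives. The 5 members that were not called included 3 of the most abundant at rest: per kilobase of transcript, mean levels in WT M0 were 469 CPM for Ifitm3, 139.6 CPM for Lgals3bp and 80.5 CPM for Trim25, the 3 highest of the members, and 0.643 CPM for Ifi44, the lowest.

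Without WT M0 replicate 2, Bst2 was no longer called (log2 0.33, adjusted p = 0.0538), and the same held without TRα1PV M0 replicate 2, TRα1PV M0 replicate 4 or WT M0 replicate 5 (adjusted p = 0.0758, 0.0506 and 0.0559). Without both M0 libraries numbered 2, 39 members were higher, and Adar (adjusted p = 0.0592) and Bst2 (0.148) were the 2 lost.

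**Figure D2:**
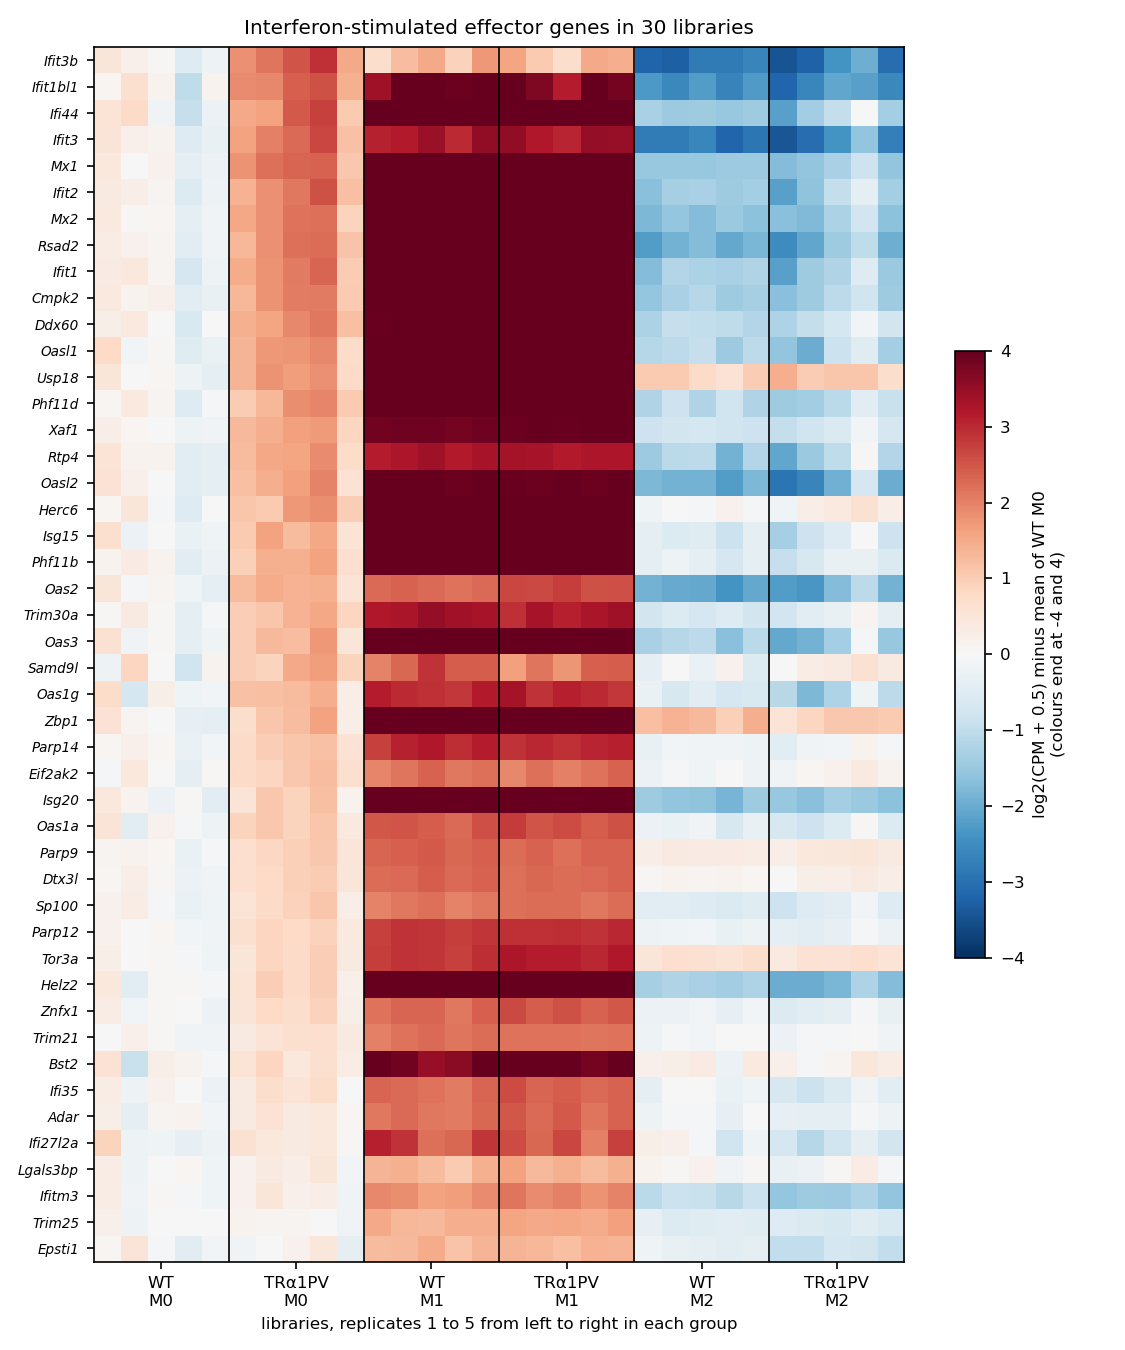
Levels of the 46 members in the 30 libraries, as log2(CPM + 0.5) minus the mean of the 5 WT M0 libraries, with colours ending at -4 and 4. Rows are ordered by the genotype difference in M0; columns are replicates 1 to 5 of each group, the M1 columns are red throughout, and TRα1PV M0 is red for most rows.

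Position and promoter letters were compared with the size of the M0 difference as descriptions only. On the reference, 17 of the 44 placed members sat beside another member, in 7 runs. Only protein-coding genes were placed, so Mx1 and Mx2, listed as transcribed pseudogenes, were left out and their position was not examined. The run of 4 on chromosome 19 (Ifit2, Ifit3, Ifit1bl1 and Ifit3b) held log2 fold changes of 1.87 to 2.30, and the run of 3 on chromosome 16 (Parp14, Dtx3l and Parp9) held 0.79 to 0.93. On chromosome 5, Oas1a and Oas1g were neighbours, as were Oas2 and Oas3 and also Oasl1 and Oasl2, with 0.87 to 1.61 over the 6. The element core shown above for Isg15, Ifit1 and Ddx60 was found in 15 of the 32 members with a window that were higher in M0 and in 1 of the 4 that were not called, Ifitm3, where it lies after the start.

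The genes upstream of these effectors were examined in the same fit. Of 7 interferon ligand genes, Ifnb1 (interferon-β) alone passed the filter, and Ifna1, Ifna4, Ifna5, Ifne and Ifng had 0 reads in every M0 library. Ifnb1 stood at 0.0283, 0.051, 0.0246, 0 and 0 CPM in WT M0 and 0.0225, 0.0524, 0.0443, 0.0478 and 0.0555 CPM in TRα1PV M0, which is a few reads per library. The groups overlapped, and the difference was not detectable at this depth (0.98 ± 0.57, adjusted p = 0.316). The receptor genes differed little. Ifnar1 had 187, 212, 209.8, 204 and 203 CPM in WT and 211, 223, 217, 200.1 and 211 CPM in TRα1PV (0.06 ± 0.05, not called), and Ifnar2 had 120.1, 127, 123, 123 and 122 and 135, 139, 138, 127 and 135 CPM (0.13 ± 0.05, adjusted p = 0.0361). The Ifnar2 call was lost without WT M0 replicate 1, 3, 4 or 5 and without TRα1PV M0 replicate 1, 2, 3 or 5 (adjusted p 0.0544 to 0.0862).

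Of 7 receptor and kinase genes, 3 were higher in TRα1PV M0 and 0 lower, beside 12% and 14% of all genes. Of 8 transcription factor genes, 3 were higher and 0 lower, namely Stat2, Irf9 and Irf7. Stat2 had 143, 126, 125, 114 and 102 CPM in WT M0 and 223, 269, 261, 301 and 166 CPM in TRα1PV M0 (1.00 ± 0.11, adjusted p = 7.86e-08). Irf9 differed least of them, at 60.7, 58.6, 59.3, 51.6 and 50.5 and 73, 80.4, 74.6, 78.9 and 64.7 CPM (0.41 ± 0.08, adjusted p = 5.53e-04). Irf7, the factor that amplifies interferon production, had 59.9, 37.1, 41, 32 and 32.4 and 103, 139, 122, 155 and 68.4 CPM (1.54 ± 0.20, adjusted p = 8.91e-07). None of these 3 overlapped between genotypes. Irf1, a factor induced by interferon-γ, had 140.3, 117, 131, 132 and 117 CPM in WT and 112, 138, 122, 122 and 104 CPM in TRα1PV, which overlapped (-0.09 ± 0.08, adjusted p = 0.401).

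Sensor and adaptor genes were mixed, with 6 of 13 higher and 3 lower in TRα1PV M0, beside 12% and 14% of all genes. The RNA sensor genes Rigi (1.02 ± 0.13), Ifih1 (0.72 ± 0.15) and Dhx58 (0.92 ± 0.13) and the DNA sensor gene Cgas (0.54 ± 0.10) rose, whereas the adaptor gene Mavs (-0.45 ± 0.08) and the kinase gene Ikbke (-0.38 ± 0.09) fell. Among 9 tested genes for ISG15 conjugation and brakes on the pathway, 3 were higher and 2 lower, beside the same shares of all genes. Ube2l6 and Uba7, which pass ISG15 on to its targets, rose by 0.72 ± 0.10 and 0.47 ± 0.11. Socs1, a brake on JAK signalling, was near 1 CPM in both genotypes (1.16, 0.434, 0.589, 0.575 and 0.46 in WT, 0.855, 1.02, 0.62, 0.797 and 0.721 in TRα1PV) and was not called (0.30 ± 0.27). With the percentage of reads outside genes as a covariate Socs1 was called higher (adjusted p = 0.0286).

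**Figure D3:**
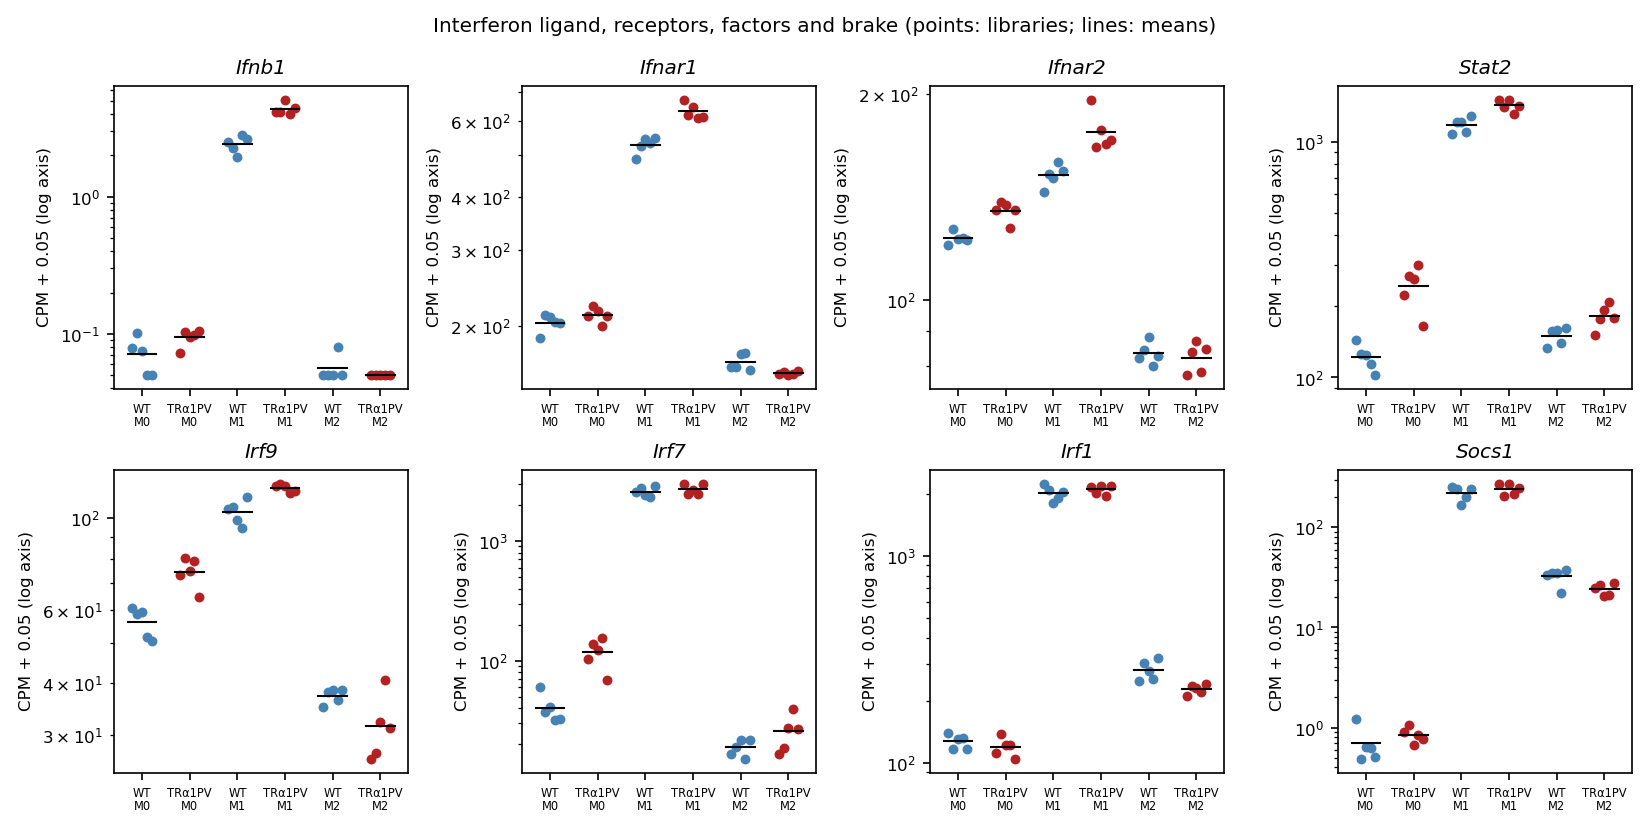
Levels of interferon-β, its receptor genes, transcription factors and the brake Socs1 in each library, as CPM + 0.05 on a log axis; blue points are WT, red points TRα1PV, and lines are group means. In M0, Stat2, Irf9 and Irf7 do not overlap between genotypes, while Ifnb1, Ifnar1, Irf1 and Socs1 do.

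Other measures also moved with genotype in M0. Markers of granulocyte precursors summed to 178 to 365 CPM in TRα1PV M0 and 48.4 to 209 CPM in WT M0, and all 9 tested of 10 were higher, with the neutrophil marker Ly6g at or near 0 in both. Markers of inflammatory monocytes summed to 1059 to 1304 and 501 to 596 CPM, with 4 of 7 higher and 1 lower. F13a1 made up most of this sum, at 968 to 1114 CPM in TRα1PV M0 and 423 to 508 CPM in WT M0. Markers of fibroblasts summed to 1.28 to 2.80 CPM in TRα1PV M0 and 7.05 to 24.1 CPM in WT M0, with all 7 tested of 9 lower. Markers of plasmacytoid dendritic cells, a main source of interferon-α, summed to 0.972 to 1.86 and 0.675 to 1.68 CPM, with none called of 4 tested of 7 and with Klk1 at 0 and Ly6d in at most 1 library. Reads outside genes made up 12.0 to 14.7% in TRα1PV M0 and 9.68 to 14.2% in WT M0, and with this share as a covariate 44 members were higher. The part of the marker differences in the member differences was not tested. In M2, the granulocyte precursor sum was again higher in TRα1PV (98.3 to 228 against 28.6 to 92.8 CPM), with 6 of 9 tested higher and 0 lower. The inflammatory monocyte sum was 1942 to 3130 against 1333 to 2070 CPM, with 2 of 7 higher and 1 lower. Most of that sum was Fn1, at 1762 to 2930 CPM in TRα1PV M2 and 1254 to 1958 CPM in WT M2. Over all genes, 6.14% were higher and 6.96% lower in M2.

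LPS with interferon-γ raised every member in WT. All 46 were higher in M1 than in M0 (39.4% of all genes were), and 0 were lower (40.2% were). The WT M1 libraries of each member lay above all WT M0 libraries, which held for 31.5% of all genes, and the median log2 fold change was 3.28 (range 1.28 to 8.78). Oasl1 rose most, from the 7.11, 3.62, 4.05, 2.7 and 3.22 CPM of WT M0 to 1661, 1896, 1726, 1757 and 2001 CPM in WT M1, 439-fold (8.78 ± 0.29, adjusted p = 3.48e-22). Ifi44 followed, at 341, 387, 454, 407 and 418 CPM in WT M1 (102-fold, 6.68 ± 0.36, adjusted p = 9.26e-17). Rsad2 stood at 90.7, 83.3, 79.5, 54.1 and 67.5 CPM in WT M0 and 5137, 7687, 9196, 6817 and 8366 CPM in WT M1 (99.2-fold, 6.63 ± 0.27, adjusted p = 8.60e-20), with replicate 1 the lowest in M1. The smallest rises were those of Ifit3b (1.28 ± 0.28), Epsti1 (1.29 ± 0.13) and Lgals3bp (1.29 ± 0.11). Per kilobase of transcript the order of levels changed, with Ifit2 (2265 CPM), Rsad2 (1716 CPM) and Ifitm3 (1616 CPM) the highest of the members in WT M1.

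In TRα1PV, 45 members rose with LPS and interferon-γ (40% of all genes were higher) and 1 fell (40.7% were lower). The median log2 fold change was 2.17. Oasl1 rose by 7.27 ± 0.27, Rsad2 by 5.04 ± 0.25 and Ifi44 by 4.38 ± 0.32. The member that fell was Ifit3b, whose M1 libraries held 25.8, 17.5, 13.7, 24.5 and 23.7 CPM in TRα1PV, under its M0 values except for an overlap at their low end (-0.99 ± 0.26, adjusted p = 0.00119). In WT M1 it held 13.9, 20.1, 24.7, 16.1 and 28.5 CPM. The genotypes, apart in M0, overlapped for Ifit3b in M1.

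The second genotype comparison was made in M1. There 2 of 46 members (4.35%) were higher in TRα1PV and 0 lower, beside 9.74% and 10.2% of all genes. The median log2 fold change was 0.08 (range -0.39 to 0.43). Isg20 had 99.1, 85.6, 91.3, 82.9 and 100.3 CPM in WT M1 and 155, 110.1, 117, 113 and 123 CPM in TRα1PV M1, with no overlap and with TRα1PV replicate 1 well above the others (0.43 ± 0.14, adjusted p = 0.0266). This call was lost without TRα1PV M1 replicate 1 (log2 0.34, adjusted p = 0.113) and without WT M1 replicate 2, 3 or 4 (adjusted p = 0.0637, 0.0548 and 0.0685), which leaves 1 called member. Tor3a, a relative of torsin ATPases, had 453, 490.0, 476, 442 and 509 CPM in WT M1 and 627, 577, 588, 529 and 611 CPM in TRα1PV M1, also without overlap (0.31 ± 0.09, adjusted p = 0.0144). Of all members, 8 had their TRα1PV libraries above all WT libraries, against 5.65% of all genes. The others were Oas2, Mx1, Mx2, Isg15, Parp12 and Xaf1, at log2 fold changes of 0.11 to 0.39 that did not pass. With only the M1 libraries in the fit, 7 members were higher, and with the percentage of reads outside genes as a covariate 7 were higher and 1 lower.

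Among upstream genes in M1, the ligand gene Ifnb1 and both receptor genes were higher in TRα1PV. Ifnb1 had 2.46, 2.2, 1.88, 2.75 and 2.57 CPM in WT M1 and 4.09, 4.09, 5.04, 3.93 and 4.41 CPM in TRα1PV M1, without overlap (0.86 ± 0.17, adjusted p = 6.80e-04). The test of this difference against that in M0, where reads were few, did not pass (-0.12 ± 0.34, adjusted p = 0.874). Ifnar1 had 488, 523, 544, 532 and 546 and 672, 620.1, 648, 609.9 and 613 CPM (0.26 ± 0.05, adjusted p = 1.56e-04), and Ifnar2 144, 153, 151, 159 and 154 and 196, 167, 177, 169 and 171 CPM (0.21 ± 0.05, adjusted p = 0.00182). Neither overlapped between genotypes. Of the 8 transcription factor genes none was called. Stat2 (0.28 ± 0.11), Irf9 (0.19 ± 0.08), Irf7 (0.07 ± 0.19), Irf1 (0.05 ± 0.08) and Socs1 (0.14 ± 0.13) were not called. All TRα1PV M1 libraries still lay above all WT M1 libraries for Stat2 (1312 to 1504 against 1081 to 1278 CPM). The same held for Irf9 (115 to 121 against 95.0 to 113 CPM), and for 5.65% of all genes. Irf7, Irf1 and Socs1 overlapped. Stat2 was called higher in 2 of 18 alternatives, and Irf9 and Socs1 in 1 each (lowest adjusted p = 0.0112, 0.0333 and 0.0236).

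The difference between the genotype effects was tested as an interaction over the 4 groups, which shares the M0 libraries with the comparisons above. The genotype effect was lower in M1 than in M0 for 37 members and higher for 0, against 13.3% of all genes in each direction, with a median difference of -1.02. The smallest p-values belonged to Parp9, Xaf1, Usp18 and Mx1. Parp9 had 85.9, 88.2, 85.4, 67 and 76.6 CPM in WT M0 and 128, 144, 157, 169 and 112 CPM in TRα1PV M0, with no overlap. In M1 it had 409, 426, 443, 398 and 425 CPM in WT and 379, 414, 373, 416 and 418 CPM in TRα1PV, which overlapped, and the difference of effects was -0.89 ± 0.11 (adjusted p = 5.31e-06). Xaf1 had 26.3, 23.1, 22.3, 19.1 and 19.9 and 54.7, 61.4, 69.4, 71.9 and 40.1 CPM in M0. In M1, where TRα1PV still lay above WT in every library, it had 327, 335, 333, 316 and 334 and 342, 358, 344, 358 and 376 CPM, for a difference of -1.32 ± 0.17 (adjusted p = 6.23e-06).

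Usp18 had 13.3, 9.39, 9.87, 7.98 and 6.87 CPM in WT M0 and 24.5, 33.4, 30.9, 34.2 and 16 CPM in TRα1PV M0. Its M1 values were 737, 904, 836, 808 and 943 and 803, 701, 739.8, 715 and 802 CPM, overlapping and on average lower in TRα1PV, and the difference of effects was -1.72 ± 0.23 (adjusted p = 6.81e-06). For Mx1 the M1 values were 2017, 2631, 2757, 2679.6 and 2762 CPM in WT and 3066, 3106, 3180.4, 3036 and 3048 CPM in TRα1PV (-1.74 ± 0.25, adjusted p = 1.94e-05). The TRα1PV libraries were close to each other and all above WT, with WT replicate 1 the lowest. The 9 members that were not called were Trim25, Adar, Ifitm3, Bst2, Lgals3bp, Isg20, Ifi35, Ifi27l2a and Epsti1, which include the 5 not called in M0. Among the factors, Irf7 (-1.47 ± 0.27) and Stat2 (-0.72 ± 0.16) were called lower and Irf9 (-0.22 ± 0.12) was not.

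**Figure D4:**
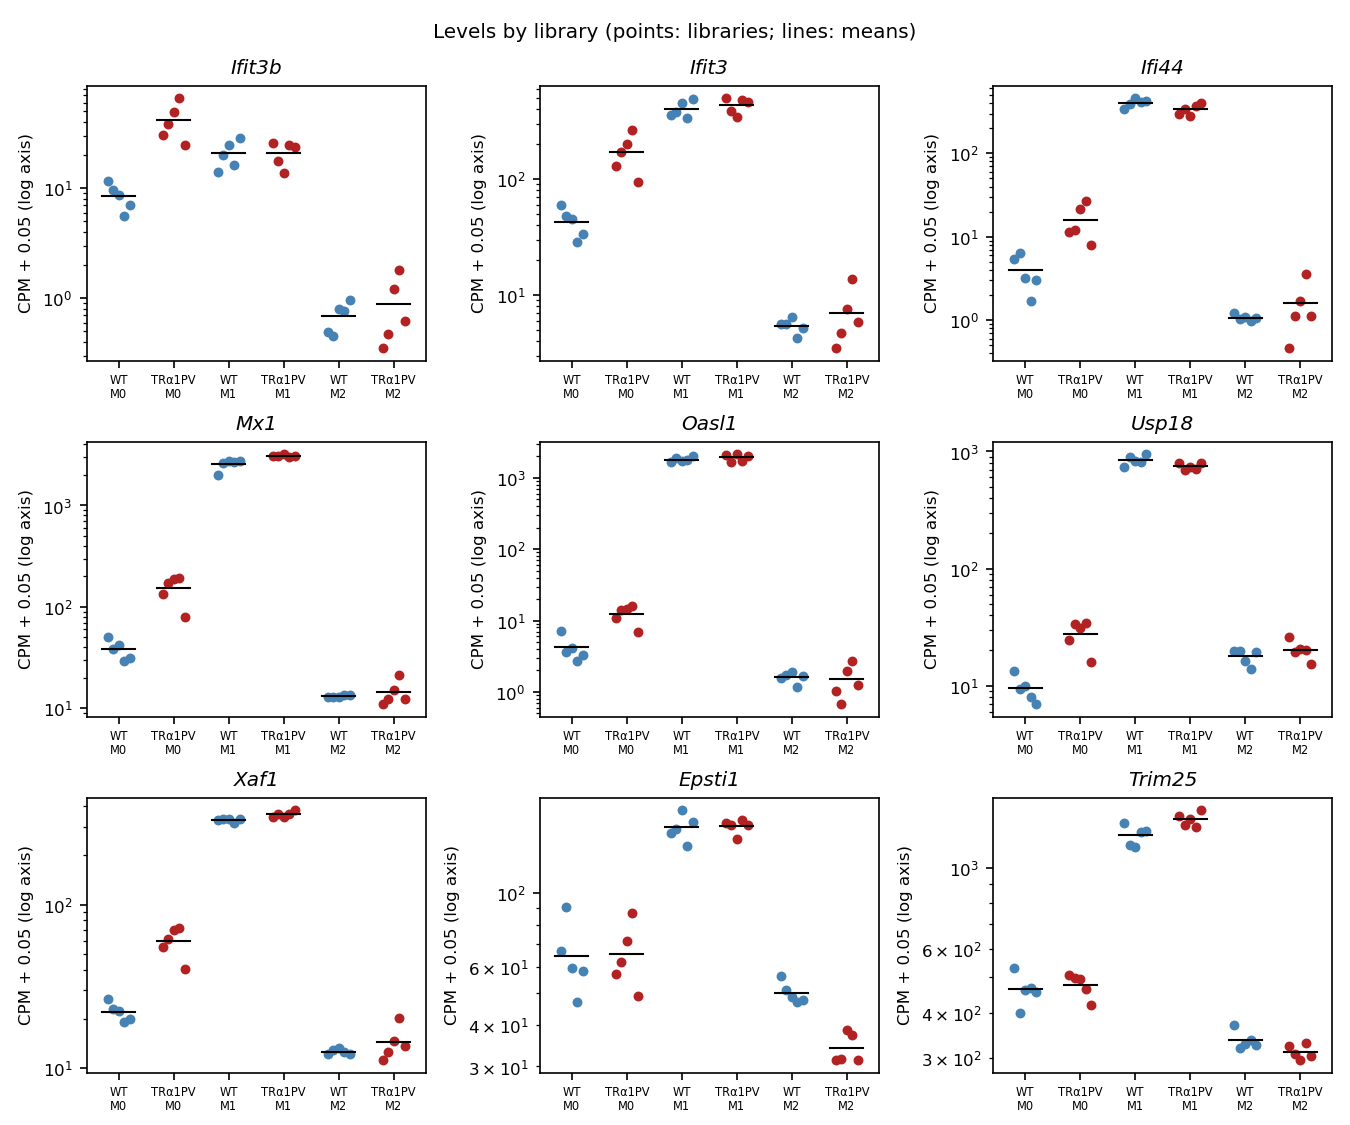
Levels of 9 members in each library, as CPM + 0.05 on a log axis; blue points are WT, red points TRα1PV, and lines are group means. In M0 the red points of 7 of these genes stand above or mostly above the blue points, in M1 and M2 the genotypes lie close for most genes, and Trim25 and Epsti1 overlap in M0.

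Interleukin-4 lowered most members. In WT, 29 of 46 were lower in M2 than in M0 (27.2% of all genes were) and 4 higher (25.2% were), with a median log2 fold change of -0.62. The largest falls were in the IFIT cluster. Ifit3b fell to 0.442, 0.407, 0.745, 0.72 and 0.913 CPM in WT M2 (13.2-fold lower, -3.72 ± 0.38, adjusted p = 1.01e-09). Ifit3 fell to 5.52, 5.55, 6.41, 4.17 and 5.15 CPM (-3.01 ± 0.29, adjusted p = 2.98e-10) and Ifit1bl1 to 1.52, 1.16, 1.57, 1.05 and 1.56 CPM (-2.86 ± 0.34, adjusted p = 2.45e-08). All these WT M2 libraries lay below all WT M0 libraries.

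Zbp1, Usp18, Tor3a and Parp9 rose instead. Zbp1 went from 29.5, 21.3, 19.7, 15.7 and 15.4 CPM in WT M0 to 45.8, 52.2, 49, 38.3 and 55.2 CPM in WT M2 (1.25 ± 0.18, adjusted p = 5.63e-07). Usp18 reached 19.6, 19.8, 16.2, 14 and 19.2 CPM (0.91 ± 0.17, adjusted p = 3.62e-05). Neither gene overlapped between the 2 states. Tor3a stood at 77.7, 64.4, 67.4, 61.5 and 58.5 CPM in WT M0 and 91.6, 105, 101, 96.6 and 106 CPM in WT M2 (0.60 ± 0.09, adjusted p = 1.52e-06), and Parp9 rose by 0.32 ± 0.08. These 4 genes were not higher in TRα1PV M2 than in TRα1PV M0. There, 43 members fell (29.4% of all genes were lower) and 0 rose (28.3% were higher), with a median of -1.75. The 3 not called were Zbp1 (-0.12 ± 0.17), Bst2 (-0.37 ± 0.17) and Tor3a (-0.15 ± 0.09), and Usp18 fell by 0.46 ± 0.16.

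The third genotype comparison was made in M2. There 0 members were higher in TRα1PV and 4 lower, beside 6.14% and 6.96% of all genes, and the median was 0.07 (range -0.67 to 0.66). Ifi27l2a, an interferon-induced gene, had 23, 22.5, 18.7, 11 and 17.2 CPM in WT M2 and 11.8, 8.5, 11, 15 and 11.4 CPM in TRα1PV M2 (-0.67 ± 0.22, adjusted p = 0.0451). WT replicate 4 lay within the TRα1PV range. Epsti1 had 55.9, 51, 48.4, 46.7 and 47.4 CPM in WT and 31.2, 31.6, 38.7, 37.3 and 31.3 CPM in TRα1PV (-0.55 ± 0.13, adjusted p = 0.00462). Ifitm3 had 149, 172, 169, 147 and 174 and 107, 118, 115, 134 and 105 CPM (-0.49 ± 0.10, adjusted p = 0.00132). Epsti1 and Ifitm3 were the 2 members whose groups did not overlap (7.87% of all genes were lower without overlap). Neither was called in M0. Helz2 had 13, 14.4, 13.4, 12.5 and 14.1 CPM in WT and 8.16, 8.22, 9.12, 14 and 9.72 CPM in TRα1PV, where replicate 4 alone reached the WT range (-0.45 ± 0.15, adjusted p = 0.0484).

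The calls of Helz2 and Ifi27l2a were fragile. Helz2 lost its call in 8 of the 10 settings that leave out 1 M2 library, those without WT or TRα1PV replicate 1, 2, 3 or 5 (adjusted p 0.077 to 0.127), and also with the replicate block (0.0504), limma-voom (0.0839), no filter on low counts (0.0594) and the percentage of reads outside genes as a covariate (0.158). Ifi27l2a lost its call in the same 8 (0.0604 to 0.126), with limma-voom (0.0798) and with that covariate (0.163). Without TRα1PV M2 replicate 4, 6 members were lower, and without TRα1PV M2 replicate 1, 2 were lower and 1 higher. Epsti1 and Ifitm3 kept their calls in all 18 alternatives run. Upstream, Irf1 was lower without overlap (250.1, 303, 278, 254 and 321 against 210.5, 234, 231, 221 and 240.4 CPM, -0.31 ± 0.08, adjusted p = 0.00761), and Socs1, raised by interleukin-4 in both genotypes, was lower (33.7, 34.7, 34.9, 22.2 and 37.2 against 24.9, 26.3, 20.5, 20.9 and 28.1 CPM, -0.43 ± 0.14, adjusted p = 0.0358). The Socs1 call was lost without WT M2 replicate 1, 2, 3 or 5 and without TRα1PV M2 replicate 3 or 4 (adjusted p 0.076 to 0.109). Of the 9 tested conjugation and brake genes, 1 was higher and 3 lower in TRα1PV M2, beside 6.14% and 6.96% of all genes. In M1, 1 was higher and 0 lower, beside 9.74% and 10.2% of all genes. Socs3, another brake of the same family, named here after its values were seen, had 3.04, 5.81, 4.67, 5.91 and 6.01 CPM in WT M2 and 1.28, 2.86, 2.43, 1.76 and 2.45 CPM in TRα1PV M2, without overlap (-1.25 ± 0.20, adjusted p = 6.36e-05). It was the gene called higher in M1 (0.69 ± 0.15, adjusted p = 0.00136, also without overlap), and both calls held in all 18 alternatives. In M0 it was lower, with overlap (-0.49 ± 0.17, adjusted p = 0.0335), a call lost without WT M0 replicate 1, 3 or 4 and without TRα1PV M0 replicate 3, 4 or 5 (adjusted p 0.0567 to 0.0937). Stat2 (0.28 ± 0.11), Irf9 (-0.24 ± 0.08), Irf7 (0.46 ± 0.20), Ifnar1 (-0.08 ± 0.05) and Ifnar2 (-0.02 ± 0.05) were not called, and Ifnb1 had a read in 1 of 10 M2 libraries.

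The genotype effect was lower in M2 than in M0 for 33 members and higher for 0, beside 1.46% and 0.701% of all genes, with a median difference of -1.06. This interaction also shares the M0 libraries. Mx1 had 12.8, 12.7, 12.9, 13.3 and 13.5 CPM in WT M2 and 10.9, 12.4, 15.2, 21.1 and 12.2 CPM in TRα1PV M2, with WT tightly grouped and TRα1PV on both sides of it, and the difference of effects was -1.86 ± 0.26 (adjusted p = 1.31e-04). Parp12, a mono-ADP-ribosyltransferase gene, had 70.3, 61.9, 66.3, 57.4 and 56.3 and 96.3, 113, 109, 118 and 81.3 CPM in M0, without overlap. In M2 it had 53.9, 55.1, 57.9, 51 and 54 and 47.4, 46.8, 49.8, 59.9 and 52.8 CPM, which overlapped (-0.81 ± 0.11, adjusted p = 1.31e-04). Xaf1 in M2 stood at 12.2, 12.9, 13.2, 12.4 and 12.1 CPM in WT and 11.1, 12.4, 14.6, 20.2 and 13.6 CPM in TRα1PV (-1.23 ± 0.18, adjusted p = 1.90e-04), and Parp9 at 95.7, 103, 102, 102 and 99.5 and 96.1, 108, 109, 111 and 103 CPM (-0.75 ± 0.11, adjusted p = 3.14e-04). For each of these genes all TRα1PV libraries lay above all WT libraries in M0, and the genotypes overlapped in M2. Of the factors, Stat2 (-0.73 ± 0.16), Irf9 (-0.65 ± 0.12) and Irf7 (-1.08 ± 0.28) were called lower. The Irf7 call held in 17 of 29 alternatives and was lost without TRα1PV M0 replicate 2, 3 or 4, WT M0 replicate 4 or 5, TRα1PV M2 replicate 1 or 2, or WT M2 replicate 2, 3 or 5 (adjusted p 0.052 to 0.0766).

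**Figure D5:**
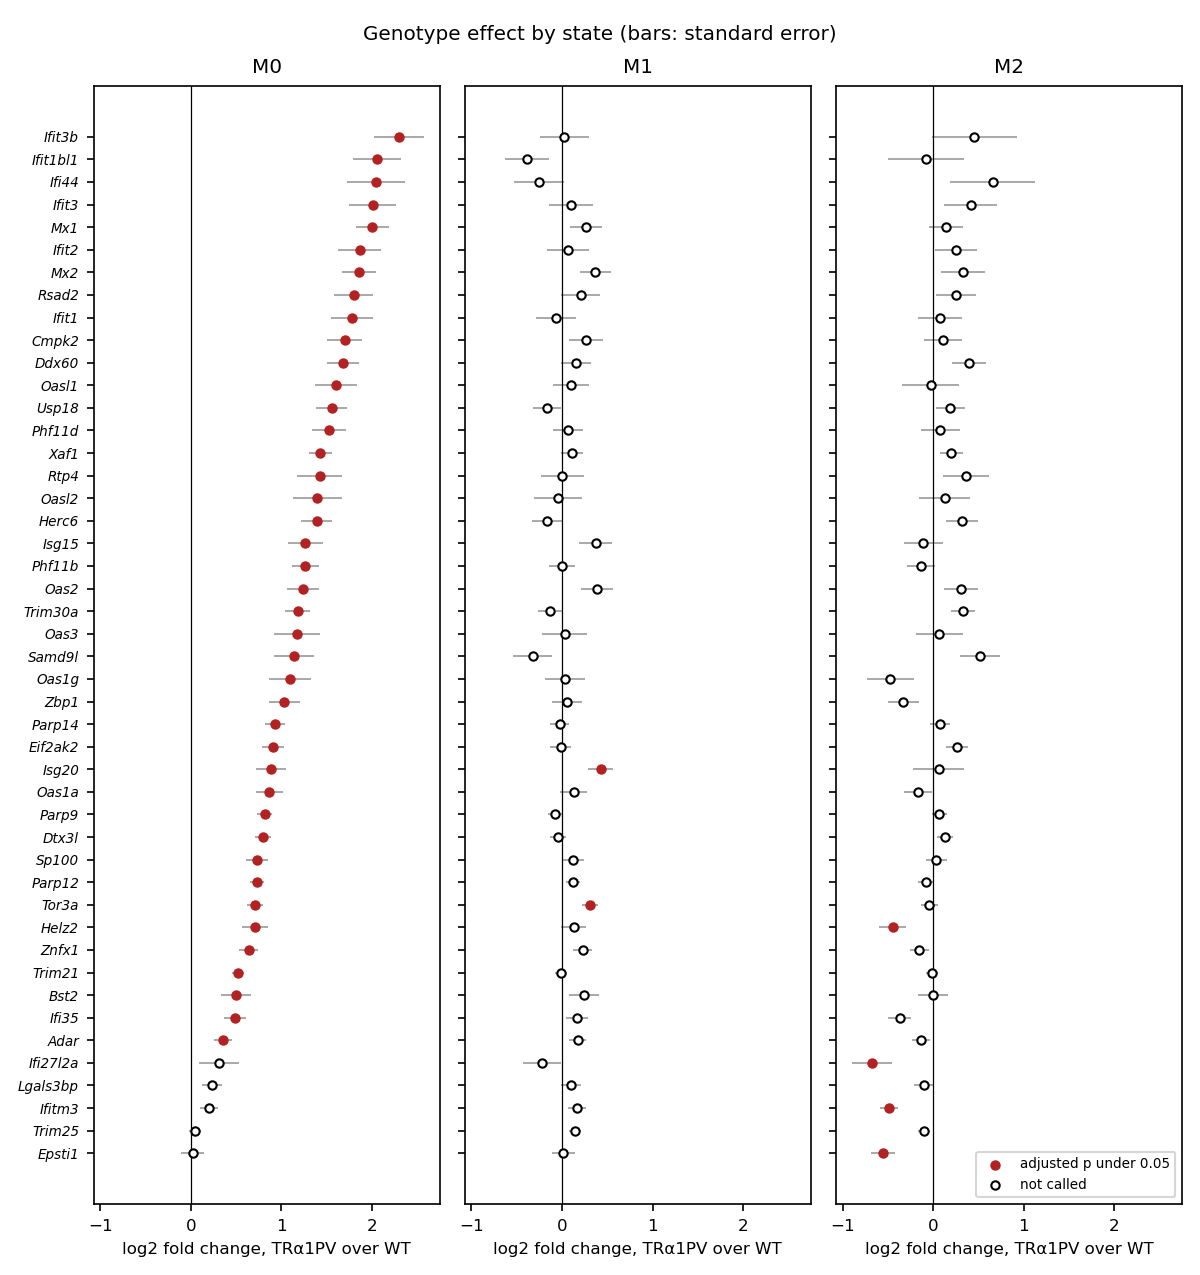
Log2 fold change of TRα1PV over WT for each of the 46 members in M0, M1 and M2, with bars for the standard error (5 libraries per group); filled red points passed the test and open points did not. Points lie right of 0 in M0 with 41 filled, and near 0 in M1 and M2 with 2 and 4 filled.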

How the data were processed

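Per the labels, polyA RNA of 30 libraries was measured, 5 for each of 6 groups. For each library the authors deposited unscaled read counts by Ensembl gene. The submitters' processing notes name HISAT2 2.2.1, HTSeq 1.99.2, FastQC 0.11.9, Trimmomatic 0.39, R 4.3.2, limma, edgeR, Cufflinks and the build GRCm39. The sources used here do not give the annotation release or the strand setting, so overlapping and near-identical genes are uncertain. Of the reads, 22.0 to 28.1% were in the 5 totals given to no gene and were left out of library sizes.

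Counts were tested in R 4.3.3 by edgeR 4.0.16, with DESeq2 1.42.0 and limma 3.58.1 as alternatives. Genes passed filterByExpr by group (minimum count 10, minimum total 15), libraries were scaled by TMM, and 1 quasi-likelihood fit over the 30 libraries gave each group its mean and left 24 residual degrees of freedom. Tests were two-sided and adjusted by Benjamini-Hochberg over 15686 genes. The standard error is the log2 fold change divided by the root of its F statistic. CPM were scaled by TMM and are given for replicates 1 to 5 in order. Simulated counts for the M0 comparison covered the tested genes (about 15700). Of changes of 1 and of 2 (log2), 72% and 97% were recovered, with 1 false call. For the interaction of M1 with genotype, over as many genes, 66% and 86% were recovered with 14 false calls. In both simulations each gene had 1 mean level over all 30 libraries, apart from the changes put in. Recovery at the levels that genes had in M0 was therefore not measured. Nor were false calls from differences between libraries that such counts do not hold.

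Symbols for all 46 members, transcript lengths, 50-base stretches and promoter windows came from a GRCm38 reference and RefSeq windows on GRCm38.p6, so no coordinates of the counted genes are given. The members, lists, rules and alternatives were chosen with earlier results of these data known. Values per library are given for the 4 called members with the largest change in each genotype comparison, the 3 largest rises and falls of each WT response, the 4 smallest p of each interaction, and 8 pathway genes; 1 further pathway gene is not reported here. Mx1 in M0 and Tor3a in M0 come under other parts of this rule.

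The labels number the replicates 1 to 5 under the tag batch, without saying what a number shares. Deviations of same-numbered WT and TRα1PV libraries had correlations of -0.549 to 0.382 (M0), -0.306 to 0.293 (M1) and -0.0379 to 0.346 (M2). Not every pair was over 0.1, so the numbers were not taken to pair the libraries of the 2 genotypes. Within TRα1PV, same-numbered M0 and M2 libraries had a mean correlation of 0.255, against -0.0636 for other numbers. There, 4 of the 5 M0 libraries matched their own number best. Mean correlations for the other state pairs within a genotype lay from -9.77e-05 to 0.0753. The main fit holds no term for such a link, and a block within genotype was run as an alternative. No library was a copy of another: in the 60 pairs within groups, chi-square divided by its degrees of freedom was 6.28 to 200. The alternatives tried were a fit of only the compared groups, a replicate block, a covariate for the percentage of reads outside genes, DESeq2, RLE size factors, limma-voom, dropping the low-count filter, and leaving out 1 library, or both M0 libraries numbered 2.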

Additional observations from a re-analysis of the deposited data

Results flagged for a closer look

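Within groups of 5, single libraries stood off from the other 4 in 13 of 276 cases examined (46 members in 6 groups). The rule set the gap to the nearest library against the range of the group. Its nominal rate of 1 in 20 is for independent, normally distributed values. Members measured in the same libraries are not independent, so no comparison with chance is drawn. TRα1PV M2 replicate 4 was the highest library in 4 of the 13, with Oas1a at 34.9 CPM (others 18.9 to 23.3), Oas3 at 43.7 CPM, Oasl2 at 51.8 CPM and Helz2 at 14 CPM. WT M0 replicate 1 was the highest for Isg15 (13.1 CPM) and Ifi27l2a (36.7 CPM). TRα1PV M1 replicate 4 was the lowest for Trim21 (130.0 CPM) and Sp100 (675 CPM). The others were Oas3 in TRα1PV M1 replicate 1 (1431 CPM, high), Epsti1 in TRα1PV M1 replicate 3 (145 CPM, low), Mx1 in WT M1 replicate 1 (2017 CPM, low), Ifit1 in WT M2 replicate 1 (7.04 CPM, low) and Oasl2 in WT M2 replicate 4 (17.4 CPM, low).

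The genotype effect differed between states by the interaction test, lower in M1 than in M0 for 37 members and lower in M2 than in M0 for 33. In M1 the log2 differences of the 4 smallest p-values were -0.89 for Parp9, -1.32 for Xaf1, -1.72 for Usp18 and -1.74 for Mx1. In M2 they were -1.86 for Mx1, -0.81 for Parp12, -1.23 for Xaf1 and -0.75 for Parp9. Both sets use the same M0 libraries.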

How the results depend on the processing

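Over up to 29 alternatives, 39 of the 41 members called in M0, all 46 of each M1 response, 28 of 33 and 40 of 43 of the M2 responses in WT and TRα1PV, and 34 of 37 and 27 of 33 of the interactions of M1 and M2 with genotype kept their calls. The M0 count ranged from 39 to 44. Over all genes, the count higher in M0 ranged more, from 1140 with only the compared groups to 3101 without both M0 libraries numbered 2 (2957 without WT M0 replicate 2), around 1876, and the count lower from 1318 to 3306, around 2196. In M1 up to 2603 genes were higher and 2859 lower (1528 and 1604 as reported), with the percentage of reads outside genes as a covariate. In M2, 541 (without WT M2 replicate 5) to 2041 genes (only the compared groups) were higher around 963, and up to 1967 lower around 1092. The interaction of M2 had 66 to 231 genes higher around 110 and up to 364 lower around 229, and that of M1 up to 3236 higher around 2091. Leaving out 1 library gave 1 to 2 members higher in M1, 0 to 1 higher in M2 and 2 to 6 lower in M2, around 2, 0 and 4. With only the compared groups, 7 members were higher in M1 and 3 in M2. With the covariate, 7 were higher and 1 lower in M1, and 2 were lower in M2. With limma-voom 2 were lower in M2, and without both M0 libraries numbered 2, 1 was higher there. The cause of these moves was not tested. With a replicate block, 41 members were higher in M0, 2 higher in M1, 3 lower in M2, and 37 and 34 lower in the interactions; a block within genotype gave 36 and 38 for the last. Among called genes with a printed value, the block ended the call of Helz2 in M2 (adjusted p = 0.0504) and no other. Among the printed results, signs turned for 4 that were not called. Trim25 in M0 was -0.0219 without both M0 libraries numbered 2 and ran from -0.00799 to 0.0941 without 1 library. Epsti1 in M0 was -0.103 with the covariate and ran from -0.1 to 0.179 without 1 library. Without 1 library, Zbp1 in TRα1PV M2 against M0 ran from -0.251 to 0.0672 and the Ifnb1 interaction in M1 from -0.67 to 0.217. Depth limits Ifnb1 in M0 and M2, where it had a few reads at most, and Ifit3b and Ifi44 in WT M2, which stood near or under 1 CPM.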

Other observations

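Single libraries of a group differed in the level of the whole member set. The median over the 46 members of log2(CPM + 0.5) minus the WT M0 mean was 0.31, 0.14, 0.05, -0.32 and -0.16 in WT M0 replicates 1 to 5 and 0.98, 1.11, 1.27, 1.55 and 0.56 in TRα1PV M0. In M2 it was -0.43, -0.55, -0.51, -0.73 and -0.57 in WT and -0.98, -0.91, -0.67, -0.12 and -0.74 in TRα1PV. TRα1PV replicate 4 was the highest and WT replicate 4 the lowest of its genotype in both states. In M1 the medians lay between 3.18 and 3.46 in WT and between 3.15 and 3.45 in TRα1PV, so the libraries there were closer to each other than in M0 or in TRα1PV M2. The 46 members together held 40926 to 51259 CPM in WT M1 and 48741 to 53541 CPM in TRα1PV M1, and 3152 to 4218 and 4637 to 7975 CPM in M0.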
